A study of Rattus norvegicus with 138 samples.

Results

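Elastic fiber and microfibril genes were chosen by symbol: Eln, Fbn1, Fbln1, Fbln2, Fbln5, Emilin1, Mfap2, Mfap4, Mfap5 and Efemp2, a list of 10 symbols. Of these, 9 had a row among the 16181 gene symbols of the expression table, and all 9 entered the tests. Fbln2 was not analysed here. The study profiled whole tibialis anterior (TA) muscle of inbred male Lewis rats, about 4 months old, by RNA sequencing after volumetric muscle loss (VML), a defect made with a 6 mm biopsy punch on one side. Unrepaired defects were left empty, and graft muscles received an autologous minced muscle graft (MMG) cut from the excised tissue of the same rat. The contralateral muscle came from the other leg of an operated rat. Muscles were taken at 3, 7, 14 and 28 days post injury (DPI), from rats whose labels say either that they ran or that they did not. Control muscles, labelled as sham at day 0 and described by the study as unoperated, were 4 muscles of 2 rats that did not run. These control rats carry another series code than every operated rat, so this code and the operation cannot be told apart.

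Elastic fibers give stretch and recoil to connective tissue. Their core is cross-linked elastin, which is laid down on a scaffold of microfibrils built from fibrillin and its associated glycoproteins. Fibulins and emilin guide elastin onto that scaffold, and lysyl oxidases cross-link it. In muscle, elastic fibers run in the connective tissue sheaths, in artery walls and toward the tendon, and fibroblasts and smooth muscle cells are known to make them.

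Promoter sequence was on file for 5 of the 9 measured genes (Efemp2, Fbn1, Fbln5, Mfap2 and Mfap5). The 250 bases before the start of Mfap2 and of Mfap5 are shown because these genes encode the paired microfibril glycoproteins MAGP-1 and MAGP-2, of which only Mfap2 was called higher at 7 than at 3 DPI. Both come from RefSeq, build GRCr8, which is a later build than the one used for the expression values. The Mfap5 window is chr4:157399669-157399918 and the Mfap2 window chr5:158597478-158597727, both on the plus strand. Capitals mark the GC box, GGGCGG on either strand.
Mfap5: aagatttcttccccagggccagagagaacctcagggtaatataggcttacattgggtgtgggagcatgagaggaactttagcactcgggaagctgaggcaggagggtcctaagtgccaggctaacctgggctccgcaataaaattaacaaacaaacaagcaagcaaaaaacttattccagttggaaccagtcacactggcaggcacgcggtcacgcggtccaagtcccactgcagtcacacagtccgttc
Mfap2: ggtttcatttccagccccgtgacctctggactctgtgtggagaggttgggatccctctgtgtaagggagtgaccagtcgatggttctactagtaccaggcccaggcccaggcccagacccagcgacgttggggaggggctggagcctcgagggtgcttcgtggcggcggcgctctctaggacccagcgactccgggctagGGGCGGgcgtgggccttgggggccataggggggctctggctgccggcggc
The Mfap2 window lies inside the annotated span of its gene. The GC box occurred 1 time in the Mfap2 window, was not found in that of Mfap5, and was present in 30.5% of 33465 promoter windows of the same length. The CCAAT box (CCAAT, either strand) occurred 1 time in the Mfap5 window and was not found in that of Mfap2, against 34.0% of all windows. The AP-1 motif TGANTCA, held by 6.34% of all windows, and the TATA box TATAAA, held by 12.9%, had no match in any of the 5 windows. The CAGA box CAGACA, held by 17.2% of all windows, matched 1 time in that of Fbn1 and in no other. The GC box also occurred 3 times in the Efemp2 window and 1 time in that of Fbln5, and the CCAAT box 1 time in that of Efemp2.

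Expression was given as TPM, a share of all transcripts corrected for transcript length, so levels of different genes can be set side by side. Of 138 libraries, 13 had only 901 to 5712 symbols above 1 TPM and were left out by the limit of 7000 symbols, and the 125 that stayed had 7866 to 10948. A group could be taken from the labels for 116 of the kept libraries, which were 114 muscles of 78 rats in 31 groups. The study states an average read depth and that shallow libraries were left out of its own analysis, but the depth of each library behind these values is unknown. The summed TPM of 7 skeletal muscle fiber markers was 175592 to 230801 in control muscle, as the tissue label implies, and fell to 34408 to 46693 in unrepaired injured muscle at 3 DPI. Differences are of log2(TPM + 1), which understates the change of low genes, and a gene was called when its Benjamini-Hochberg adjusted p in limma was below 0.05 and its difference was beyond 1.

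In control muscle all 9 genes were low, with means between 0.92 TPM for Fbln1 and 5.84 TPM for Mfap5. In injured unrepaired muscle of rats that did not run, all 9 were called higher than control on each of the 4 days, and every injured muscle lay above every control muscle for every gene. The background was large, since 48.3% of all 11328 tested genes were called higher at 3 DPI. At 7, 14 and 28 DPI the shares were 45.6%, 25% and 21.1%. Lying above control without overlap was common too, at 69.9%, 66%, 58.9% and 60.2% of tested genes on the 4 days. The median difference over the 9 genes was 3.71, 4.07, 3.63 and 2.81 on those days, against 0.96, 0.91, 0.53 and 0.52 over all tested genes. With size factors in place of plain TPM, the medians of all tested genes became 0.31, 0.32, 0.20 and 0.20. The share of calls that were higher, 91.9%, 95%, 97.9% and 99% on plain TPM, became 69.7%, 73.2%, 86.6% and 89.7%. Of the 9 genes, all stayed called under the size factors except Fbln5 at 28 DPI, at 0.96. These are bulk muscles, in which more cells of a type and more RNA per cell cannot be told apart.

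**Figure D1:**
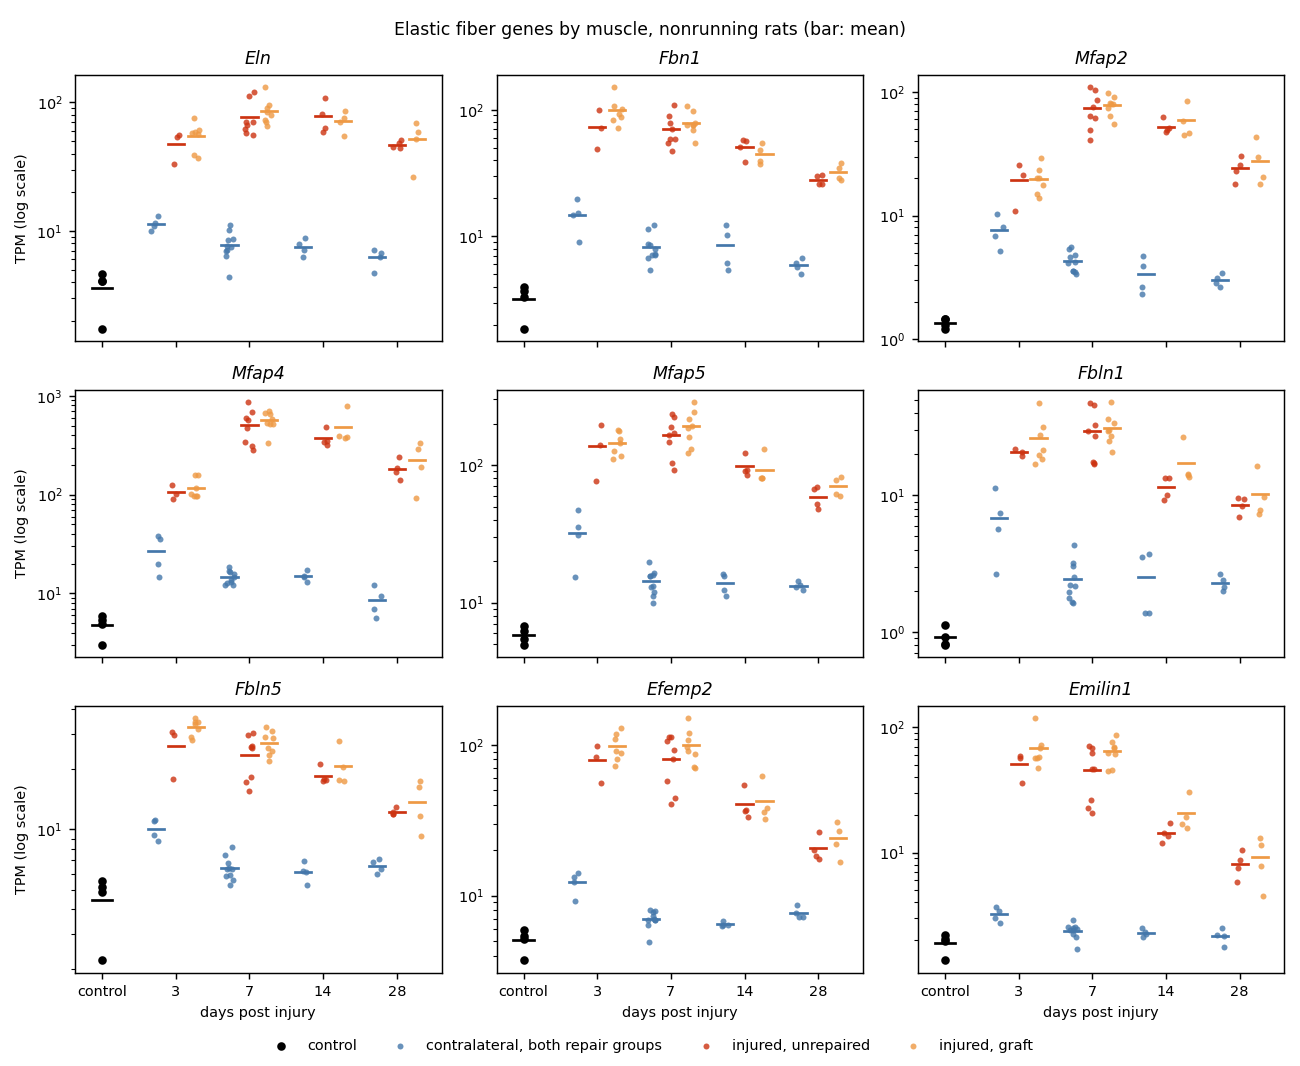
TPM of the 9 genes (log axis) in each muscle of rats that did not run, for control muscle and by days post injury for contralateral muscle (both repair groups), unrepaired injured muscle and graft-repaired injured muscle; points are muscles and bars are means. Injured muscles lie above the control muscles in every panel, and Mfap4 at 7 DPI reaches 859 TPM.

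Eln encodes tropoelastin, the soluble unit of the elastin core. The 4 control muscles held 1.73, 4.06, 4.10 and 4.62 TPM. The lowest was control replicate 4, whose library had the fewest symbols above 1 TPM of all kept libraries, 7866. At 3 DPI the 3 unrepaired injured muscles held 33.0, 54.0 and 55.7 TPM, and at 7 DPI the 8 muscles ranged from 55.6 to 121 TPM with a median of 68.1 TPM. All 7 DPI muscles but the lowest were above every 3 DPI muscle. They formed separate sets by the rat numbers in the labels, 55.6 to 66.4 TPM in the 4 rats numbered 100 and above and 69.9 to 121 TPM in the 4 with lower numbers. At 14 DPI the values were 58.9, 63.5, 81.6 and 108 TPM, and at 28 DPI 44.1, 44.7, 48.1 and 50.8 TPM. The lowest injured muscle of any of these days still held several times the highest control value. The difference from control was 4.07 at 7 DPI (SE 0.23, limma adjusted p = 3.3e-29) and 3.42 at 28 DPI (SE 0.26, limma adjusted p = 1.0e-19).

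The fibrillin gene Fbn1 encodes the backbone of the microfibril. It averaged 3.22 ± 0.95 TPM (SD, n = 4) in control muscle and 73.3 ± 24.8 TPM (SD, n = 3) at 3 DPI. Its injured means at 7, 14 and 28 DPI were 70.8 ± 20.8 TPM (SD, n = 8), 50.9 ± 8.75 TPM (SD, n = 4) and 28.1 ± 2.48 TPM (SD, n = 4). At 7 DPI the difference from control was 4.07 (SE 0.22, limma adjusted p = 6.9e-30).

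Among the microfibril-associated glycoproteins, Mfap4 was the highest of the 9 genes from 7 DPI on. This gene encodes an extracellular protein that binds tropoelastin and fibrillin. Control muscles held 3.03, 4.89, 5.40 and 5.98 TPM, and the 3 injured muscles at 3 DPI held 90.4, 101 and 126 TPM. The 8 muscles at 7 DPI ran from 285 to 859 TPM with a median of 519 TPM, so that they shared no value with the 3 DPI muscles. They too fell into sets that did not overlap, 285 to 470 TPM in rats numbered 100 and above (median 325 TPM) and 568.4 to 859 TPM in the others (median 638 TPM). At 14 DPI the 4 values were 319, 338, 347 and 486 TPM, and at 28 DPI they were 140, 168, 185 and 242 TPM. The ratio of mean TPM to control was 106 at 7 DPI and 38.1 at 28 DPI, the highest ratio of the 9 genes on both days. The log2 difference was 6.40 (SE 0.31, limma adjusted p = 1.3e-33) and 4.99 (SE 0.35, limma adjusted p = 1.2e-21).

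Mfap2 encodes MAGP-1, a small glycoprotein of fibrillin microfibrils. It was among the lowest of the genes before injury, at 1.21, 1.30, 1.45 and 1.46 TPM in the control muscles. Injured muscles held 10.9, 21.2 and 25.7 TPM at 3 DPI and 40.6 to 110 TPM with a median of 69.4 TPM at 7 DPI. As with Mfap4, the muscles of these days did not overlap. Mfap2 was 4.91 above control at 7 DPI (SE 0.27, limma adjusted p = 2.1e-30).

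Mfap5 encodes MAGP-2, its relative. This gene had the highest mean of the 9 in control muscle, 5.84 ± 0.79 TPM (SD, n = 4), and at 3 DPI, 138 ± 60.0 TPM (SD, n = 3). At 7 DPI it averaged 166 ± 51.3 TPM (SD, n = 8), and at 28 DPI 59.1 ± 10.6 TPM (SD, n = 4). The 3 and 7 DPI muscles overlapped, since the former ran from 77.0 to 197 TPM and the latter from 91.7 to 234 TPM. At 7 DPI rats numbered 100 and above held 91.7 to 167 TPM and the others 171 to 234 TPM. The 7 DPI difference from control was 4.55 (SE 0.26, limma adjusted p = 1.1e-28).

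The fibulins and their relative Efemp2 followed. Efemp2 encodes fibulin-4, which brings lysyl oxidase to tropoelastin. It rose from 5.05 ± 0.95 TPM (SD, n = 4) in control muscle to 79.2 ± 21.7 TPM (SD, n = 3) at 3 DPI and 81.0 ± 30.1 TPM (SD, n = 8) at 7 DPI, and was at 20.5 ± 3.97 TPM (SD, n = 4) at 28 DPI. Its 7 DPI rats numbered 100 and above held 40.4 to 81.1 TPM and the others 92.5 to 113 TPM. The sets did not overlap for Emilin1 either, at 20.9 to 46.0 TPM and 46.4 to 71.1 TPM, while for Fbn1, Mfap2, Fbln1 and Fbln5 they overlapped. That made 5 of the 9 genes lower without overlap in the rats numbered 100 and above, where 17.9% of tested genes were. Fbln1 encodes fibulin-1, found in elastic fibers and basement membranes. Its control values of 0.81 to 1.13 TPM were the lowest, and it reached 16.8 to 47.4 TPM at 7 DPI. Fbln5 encodes fibulin-5, which tethers elastin to microfibrils and to cells. It had the smallest difference from control of the 9 genes on every day, 2.33 (SE 0.20), 2.19 (SE 0.16), 1.90 (SE 0.18) and 1.34 (SE 0.18). Its muscles still did not meet, with 2.21 to 5.54 TPM in control and 11.9 to 12.9 TPM in injured muscle at 28 DPI.

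Emilin1 encodes a glycoprotein at the interface of elastin and microfibrils. It was at 1.38, 1.97, 2.05 and 2.21 TPM in control muscle, and at 35.6, 56.5 and 59.4 TPM in injured muscle at 3 DPI. At 7 DPI the muscles spread from 20.9 to 71.1 TPM with a median of 46.2 TPM. The 4 rats with numbers of 100 and above in the labels had a median of 24.4 TPM there and the 4 with lower numbers a median of 65.0 TPM, and the ranges of these rats, 20.9 to 46.0 TPM and 46.4 to 71.1 TPM, did not overlap. At 28 DPI the values were 5.86, 7.51, 8.70 and 10.5 TPM. The difference from control was 4.12 at 3 DPI (SE 0.30, limma adjusted p = 6.5e-23) and 1.64 at 28 DPI (SE 0.27, limma adjusted p = 2.4e-07).

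Calls between days fell on few of the genes. Between 3 and 7 DPI, Mfap4 rose by a further 2.18 (SE 0.34, limma adjusted p = 1.4e-07) and Mfap2 by 1.89 (SE 0.29, limma adjusted p = 1.5e-07), where 2% of tested genes were called higher. The 3 DPI rats all had numbers below 100, and against the 4 rats of such numbers at 7 DPI alone the differences were 2.66 and 2.16, both called. Of the other 7 genes none was called, and Eln, at 0.66 (SE 0.25, limma adjusted p = 0.031), missed the limit on size. Against the rats of like numbers none of these 7 was called either, though Eln was then at 0.95 (SE 0.29, limma adjusted p = 0.011), Fbln1 went from 0.38 to 0.83 (SE 0.39, limma adjusted p = 0.11) and Mfap5 from 0.30 to 0.65 (SE 0.32, limma adjusted p = 0.13). The estimates of Efemp2, Emilin1, Fbn1 and Fbln5 changed sign there, from -0.03, -0.26, -0.05 and -0.14 to 0.45, 0.30, 0.21 and 0.12. Mfap4 and Mfap2 were the only genes of the 9 above their 3 DPI muscles without overlap, as were 5.33% of tested genes. Between 7 and 14 DPI, Emilin1 fell by 1.47 (SE 0.24, limma adjusted p = 2.4e-07) and Fbln1 fell by 1.18 (SE 0.31, limma adjusted p = 0.00053), with 6.1% of tested genes called lower. That background moved with the scaling: 691 genes were called lower and 82 higher on plain TPM, and 232 lower and 251 higher with size factors. The muscles of these days did not overlap for these 2 of the 9 genes, where 36.7% of tested genes lay lower without overlap, and Emilin1 at 14 DPI was at 11.9 to 17.3 TPM. All 4 rats at 14 DPI and 4 of 8 at 7 DPI were numbered 100 and above. Within those, with fewer 7 DPI muscles, neither call held, and the differences were -0.91 (limma adjusted p = 0.0024) for Emilin1 and -0.74 (limma adjusted p = 0.067) for Fbln1, both short of the limit on size. The Fbln1 call was lost with size factors, at -0.86. Macrophage markers summed to 110 to 419 TPM at 7 DPI and 87.9 to 105 TPM at 14 DPI, and smooth muscle markers to 327 to 911 and 230 to 300 TPM. Muscle fiber markers went from 49039 to 109986 TPM at 7 DPI to 143970 to 177454 TPM at 14 DPI. The fibroblast sums overlapped, with medians of 10677 and 4787 TPM. The part of these markers in the difference was not tested. From 14 to 28 DPI, only Mfap2 was called, at -1.10 (SE 0.31, limma adjusted p = 0.048), with 0.353% of tested genes called lower. In 8 of the 9 genes, all but Fbln1, every 28 DPI muscle lay below every 14 DPI muscle, as in 9.58% of tested genes. The same 8 had an unadjusted p below 0.05 in limma, as did 1564 of all tested genes, and the median difference was -0.75 over the 9 genes and -0.01 over all tested genes. The fibroblast marker sum was 4544 to 6301 TPM at 14 DPI and 2357 to 3504 TPM at 28 DPI, and its part in this difference was not tested. All rats at 14 DPI were numbered 100 and above and all rats at 28 DPI below 100, so day and number cannot be told apart here. All 4 Mfap2 values at 28 DPI, 18.1 to 30.1 TPM, lay below those at 14 DPI, 47.4 to 62.4 TPM. That call held when replicate 4 at 28 DPI was left out and was lost when any other muscle of either day was, at -0.98 to -1.15 and adjusted p of 0.077 to 0.18.

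The mean TPM at 28 DPI as a ratio to that at 3 DPI set the genes apart in the same way in each injured arm, a description without a test. Eln, Mfap2 and Mfap4 were at 0.83 to 1.92 of their 3 DPI mean at 28 DPI in all 4 combinations of repair and running. The other 6 genes were at 0.09 to 0.49. Emilin1 was the lowest in every arm, at 0.16, 0.14, 0.10 and 0.09 in unrepaired and graft muscle without running and in unrepaired and graft muscle with running. Mfap4 was at 1.74, 1.92, 1.44 and 1.30 in the same order. Running rats gave only 2 injured muscles per repair group at 28 DPI.

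**Figure D2:**
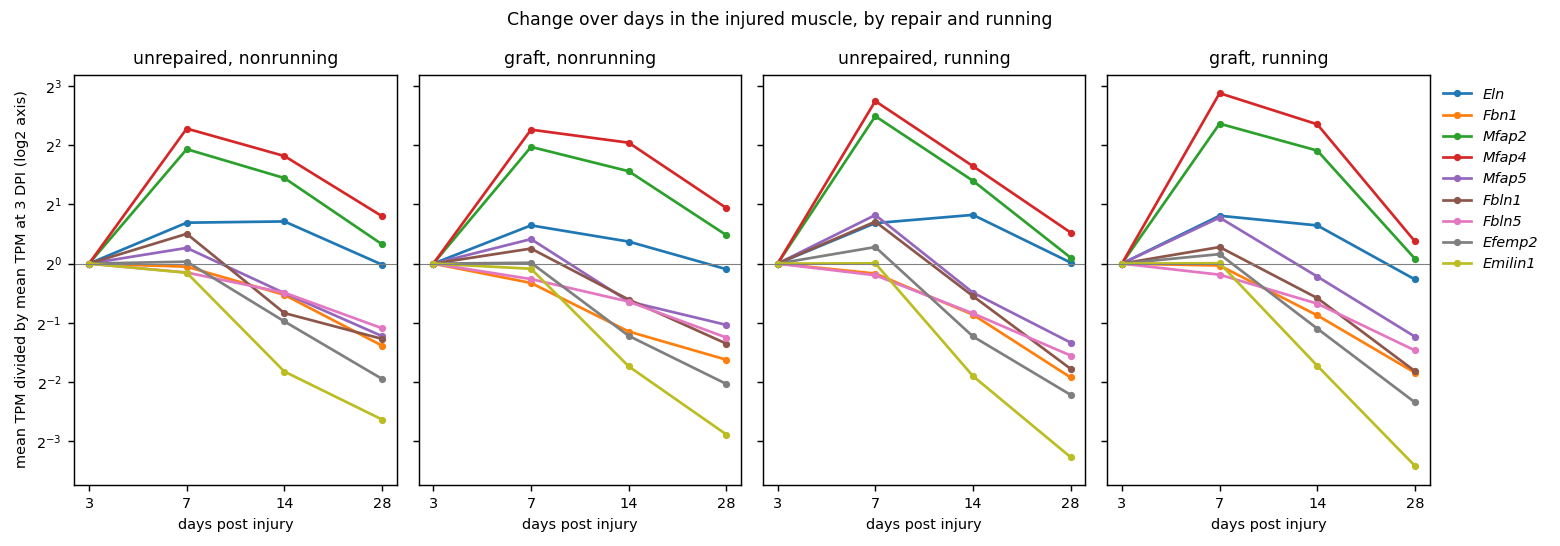
Mean TPM of each gene at 3, 7, 14 and 28 days post injury divided by its mean at 3 days (log2 axis), in injured muscle of the 4 combinations of repair and running; lines join the means of a gene. Mfap4 and Mfap2 stand highest at 7 DPI in each panel, and Emilin1 is lowest at 28 DPI.

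Over the means of the 16 injured groups, Pearson r was 0.91 between Eln and Mfap4, 0.92 between Eln and Mfap2 and 0.99 between Mfap2 and Mfap4. Emilin1 and Efemp2 had 0.99, and Fbn1 and Fbln5 0.99. The lowest of the 36 pairs was Fbln5 with Mfap4, at 0.07. Over all 31 groups the pairs ran from 0.81 to 0.99, since those also hold the contrast of injured with uninjured muscle. Groups share their days and their TPM scale, so these values are descriptive.

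The opposite leg gave a comparison within the same operation. Against the contralateral muscle of unrepaired rats, 9, 9, 9 and 8 of the 9 genes were called higher in the injured muscle at 3, 7, 14 and 28 DPI, where 32.3%, 45.3%, 20.9% and 13.1% of tested genes were. In graft-repaired rats the counts were also 9, 9, 9 and 8, against 37.2%, 42.9%, 25.6% and 18.8%. Fbln5 was the gene not called at 28 DPI, with 0.89 (SE 0.22) in unrepaired and 0.84 (SE 0.22) in graft rats. At 7 DPI all 4 contralateral muscles of unrepaired rats came from rats numbered 100 and above, against 4 of 8 injured muscles. In running rats 8, 9 and 9 were called at 3, 7 and 14 DPI, against 35.6%, 40% and 24.6%, and Mfap2 at 3 DPI, 0.97 (SE 0.25), missed the limit on size. With size factors the share of calls that were higher moved by over 10 percentage points at 3, 7 and 14 DPI in all 3 sets of rats, from 84.5%, 95.8% and 99.2% to 68.2%, 70.6% and 87.7% in unrepaired rats. In graft rats it went from 84.6%, 92.7%, 98.0% and 98.4% to 66.1%, 71.0%, 81.0% and 88.1% over the 4 days, and in running rats from 84.5%, 91.5% and 97.3% to 68.2%, 70.3% and 79.6%. No injured muscle overlapped its contralateral group in rats that did not run, while Fbln1, Mfap2 and Mfap4 overlapped at 3 DPI in running rats. Lying above without overlap was as common as 59.7%, 67%, 73.1% and 67.4% of tested genes in unrepaired rats and 62.2%, 68.4%, 75.2% and 69.7% in graft rats over the 4 days, and 52.5% at 3 DPI in running rats. With size factors Mfap2 was no longer called at 3 DPI in either group without running, at 0.98 in unrepaired rats and 0.63 in graft rats (limma adjusted p = 0.092). Fbln5 then lost its call at 3 and 7 DPI in unrepaired rats, at 0.90 and 0.93, and at 14 DPI in running rats, at 0.95. Efemp2 lost its call at 28 DPI in unrepaired rats, at 0.94, and Fbln1 at 3 DPI in running rats, at 0.99. The 3 DPI calls of Fbln1 and Mfap2 in unrepaired rats rest on 2 contralateral muscles. Without contralateral replicate 2 their differences went from 1.69 to 0.81 (limma adjusted p = 0.21) and from 1.35 to 1.08 (limma adjusted p = 0.055). In graft rats Mfap2 at 3 DPI went from 1.12 to 0.85 without contralateral replicate 1 (limma adjusted p = 0.093).

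Both muscles of the same rat were available in 34 rats, counted over both repair groups and running. All 9 genes were higher in the injured muscle in 34 of 34 rats, as were 49.2% of tested genes. The median ratio of injured to contralateral TPM within a rat was 23.9 for Mfap4, 16.1 for Emilin1, 10.98 for Mfap2, 9.0 for Efemp2 and 8.04 for Eln. It was 7.45 for Fbln1, 7.07 for Mfap5, 6.28 for Fbn1 and 3.24 for Fbln5. For Eln the lowest ratio was 3.45 and the highest 13.1, and for Mfap4 they were 2.43 and 56.6, so the range between rats was narrower for elastin. In rats that did not run the median Mfap4 ratio was 4.94 at 3 DPI and 30.7 at 7 DPI, and that of Eln 4.94 and 8.86. The order of the genes turned over with the day, since Emilin1 had a median ratio of 18.9 at 3 DPI and 3.47 at 28 DPI, and Mfap4 one of 4.94 and 20.3.

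The contralateral muscle itself was not at the control level. At 3 DPI, 8 of the 9 genes were called higher in contralateral muscle of both repair groups than in control, where 7.09% of tested genes were. The median difference was 1.83, against 0.44 over all tested genes on plain TPM and 0.10 with size factors. Over all tested genes 803 were called higher and 7 lower on plain TPM, and 345 and 37 with size factors. Emilin1, at 0.54 (SE 0.27, limma adjusted p = 0.073), was the gene not called. The Mfap5 values were 15.5, 30.9, 35.2 and 47.1 TPM in the 4 contralateral muscles and 4.95, 5.47, 6.19 and 6.74 TPM in control. Mfap4 stood at 14.6, 20.1, 35.2 and 38.4 TPM, against at most 5.98 TPM in control. Fbn1 was at 9.07, 14.8, 15.2 and 19.8 TPM, against at most 3.99 TPM. For all 9 genes, Emilin1 included, the lowest contralateral muscle was above the highest control muscle, but so it was for 54.5% of tested genes. The differences were 2.20 (SE 0.35, limma adjusted p = 3.8e-07) for Mfap4, 2.18 (SE 0.30, limma adjusted p = 1.1e-08) for Mfap5 and 1.47 (SE 0.26, limma adjusted p = 3.6e-06) for Eln. With size factors Efemp2, at 0.72, and Fbln5, at 0.68, fell below the limit on size. Leaving out contralateral unrepaired replicate 1 did so too, at 0.98 and 0.99, as did leaving out control replicate 4 for Fbln5, at 0.84.

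Markers of other cells moved with this result. At 3 DPI, 8 of 8 fibroblast markers, 4 of 5 tested tendon markers and 5 of 6 macrophage markers were also called higher in contralateral than in control muscle. Summed fibroblast marker TPM was 603 to 1384 in the 4 contralateral muscles and 87.2 to 256 in control. Tendon markers summed to 85.4 to 187 TPM and 31.1 to 52.0 TPM, and macrophage markers to 21.9 to 40.8 TPM and 5.1 to 10.1 TPM. None of these markers was at 0 in every muscle of a group. Smooth muscle and endothelial markers had no called gene of 6 each, and summed to 155 to 165 and 98.9 to 133 TPM, against 80.9 to 127 and 43.1 to 90.5 TPM in control. Skeletal muscle fiber markers had none of 7 called, with sums of 141314 to 162899 TPM, below the 175592 to 230801 TPM of control. The contralateral muscle with the lowest level of all 9 genes also had the lowest fibroblast sum, 603 TPM. The part of these markers in the result was not tested. In injured unrepaired muscle the fibroblast sum was 4266 to 7239 TPM at 3 DPI and 5512 to 15389 TPM at 7 DPI, beside the rise of the elastic fiber genes. At 3 DPI macrophage markers summed to 763 to 973 TPM, tendon markers to 155 to 233 TPM and smooth muscle markers to 276 to 608 TPM, and at 7 DPI to 110 to 419 TPM, 264 to 677 TPM and 327 to 911 TPM, all above control. The part of these markers there was not tested either.

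**Figure D3:**
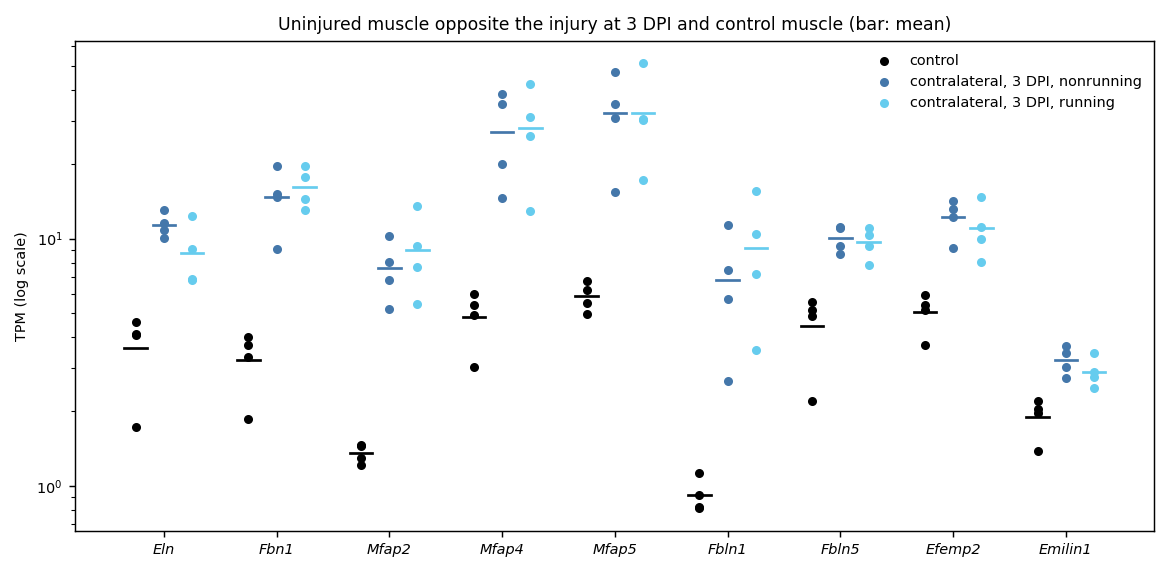
TPM of the 9 genes (log axis) in the 4 control muscles and in the contralateral muscles of rats at 3 days post injury that did not run (4 muscles) or ran (4 muscles); points are muscles and bars are means. For every gene all contralateral muscles lie above all control muscles, with the smallest gap for Emilin1.

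In running rats at 3 DPI, a comparison added after the data were seen, 7 of the 9 genes were called higher in contralateral muscle than in control, where 8.34% of tested genes were. Emilin1, at 0.43 (SE 0.27), and Efemp2, at 0.98 (SE 0.26), were not called. Both comparisons use the same 4 control muscles. The running muscles ranged from 17.3 to 51.4 TPM for Mfap5 and from 6.80 to 12.3 TPM for Eln, and for all 9 genes they also lay above control, as did 47.5% of tested genes. Their marker sums stood apart from control as well, at 670 to 1423 TPM for fibroblasts, 115 to 252 TPM for tendon, 24.6 to 38.4 TPM for macrophages and 117156 to 144820 TPM for muscle fibers, and the part of these in the result was not tested. On plain TPM 97.8% of all calls were higher, and with size factors 75.2%. With size factors Eln, at 0.71, and Fbln5, at 0.61, were no longer called. The Eln call was also lost without contralateral unrepaired replicate 2, at 0.91, and without control replicate 4, at 0.86, and the Fbln5 call without these, at 0.99 and 0.78, or without contralateral graft replicate 2, at 0.96. With each control rat averaged to 1 value the Fbln5 call was lost as well, at 0.98.

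Fewer genes were called in later contralateral muscle. The nonrunning contralateral rats were all numbered below 100 at 3 and 28 DPI, and all 100 and above at 14 DPI. At 7 DPI all 4 unrepaired and 4 of 6 graft rats were 100 and above. Day and number therefore cannot be told apart between 3 and 14 DPI, and only in part between 3 and 7 DPI. At 7 DPI, 4 genes were called higher, Fbn1 at 1.10, Mfap2 at 1.13, Mfap4 at 1.45 and Mfap5 at 1.13, where 0.9% of tested genes were. At 14 DPI there were 3, Fbn1 at 1.14, Mfap4 at 1.49 and Mfap5 at 1.11, with 0.953% of tested genes, and at 28 DPI only Mfap5, at 1.07 (SE 0.30, limma adjusted p = 0.035), with 0.494%. Mfap5 at 28 DPI was 12.5 to 14.3 TPM in the 4 contralateral muscles, against at most 6.74 TPM in control. The share of all tested genes separated this way was not counted. Its call was lost when any of the 4 contralateral muscles or control replicate 1 or 4 was left out, with adjusted p of 0.073 to 0.22. At 14 DPI the Fbn1 call was lost in a fit of these groups alone (limma adjusted p = 0.10). The Fbn1 and Mfap5 calls were lost without contralateral graft replicate 2, at 0.98 and 1.02, and without contralateral unrepaired replicate 1, at 0.88 and 1.00, and the Fbn1 call without control replicate 4, at 0.97. The contralateral fibroblast sum was 288 to 695 TPM at 7 DPI, 392 to 705 TPM at 14 DPI and 364 to 432 TPM at 28 DPI, and the macrophage sum 12.3 to 23.2 TPM, 14.7 to 22.0 TPM and 15.9 to 18.3 TPM. All were above control and their part in these results was not tested. At 7 DPI the Fbn1 call was lost without control replicate 4, at 0.93. With each control rat averaged to 1 value, 1 gene, Fbn1, was called at 14 DPI and none at 28 DPI, where 0.362% and 0.106% of tested genes were called higher. With the muscles kept apart, 7 of the 9 genes and 1904 of all tested genes had an unadjusted p below 0.05 in limma at 28 DPI.

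From 3 to 28 DPI, a second comparison added after the data were seen, 5 genes were called lower in contralateral muscle, where 1.71% of tested genes were. On plain TPM 194 genes were called lower and 4 higher, and with size factors 53 lower and 29 higher. The fibroblast sum was 603 to 1384 TPM at 3 DPI and 364 to 432 TPM at 28 DPI. Tendon markers summed to 85.4 to 187 TPM and 38.2 to 53.35 TPM, and macrophage markers to 21.9 to 40.8 TPM and 15.9 to 18.3 TPM. Muscle fiber markers went from 141314 to 162899 TPM at 3 DPI to 180278 to 187656 TPM at 28 DPI. Smooth muscle and endothelial sums were lower at 28 DPI too. The part of these markers in this difference was not tested. Mfap4 fell by 1.51 (SE 0.35, limma adjusted p = 0.00059), Fbn1 by 1.14 (SE 0.26), and Fbln1, Mfap5 and Mfap2 by 1.11 (SE 0.35), 1.11 (SE 0.30) and 1.07 (SE 0.31). Eln did not pass the limit on size, at -0.78 (SE 0.26, limma adjusted p = 0.014). Its muscles held 10.02 to 13.1 TPM at 3 DPI and 4.71 to 7.14 TPM at 28 DPI. The median of all tested genes was -0.32 on plain TPM and -0.05 with size factors, under which only Mfap4 was called. Leaving out contralateral unrepaired replicate 1 at 3 DPI also left only Mfap4, with Fbn1 at -0.88, Mfap2 at -0.93, Mfap5 at -0.73 and Fbln1 at -0.67. Without contralateral graft replicate 2 at 3 DPI, Mfap2 was at -0.94.

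The minced graft was compared with an unrepaired defect on each day in rats that did not run. No gene of the 9 was called, and in all tested genes 0.00883%, 0.0883%, 0.0265% and 0% were called at 3, 7, 14 and 28 DPI. At 28 DPI 141 tested genes had an unadjusted p below 0.05 in limma and none of the 9 did. For Eln the difference of graft from unrepaired muscle was 0.21 (95% interval -0.30 to 0.72), 0.19 (-0.18 to 0.56), -0.10 (-0.63 to 0.43) and 0.06 (-0.47 to 0.58) at 3, 7, 14 and 28 DPI. For Mfap4 it was 0.14 (-0.55 to 0.82), 0.20 (-0.30 to 0.70), 0.32 (-0.38 to 1.03) and 0.16 (-0.54 to 0.87). The ends of these intervals reach 0.72 in size for Eln and 1.03 for Mfap4, so they do not show that graft and unrepaired muscle were alike. The groups overlapped for every gene and day except Fbln1 at 14 DPI, at 13.7 to 26.6 TPM with the graft and 9.27 to 13.5 TPM without, a difference of 0.49 (SE 0.35, limma adjusted p = 0.73). On that day 7.64% of tested genes lay higher with the graft without overlap.

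Emilin1 at 7 DPI had the largest difference, 0.60 (95% interval 0.215 to 0.986, limma adjusted p = 0.040), below the limit on size. Graft muscles held 44.7 to 87.2 TPM (n = 8) and unrepaired muscles 20.9 to 71.1 TPM (n = 8). Within the rats numbered 100 and above the difference was 0.99 (limma adjusted p = 0.0061) and within those of lower numbers 0.21 (limma adjusted p = 1.0), a split chosen after the data were seen. Over all tested genes 117 were called in the former rats and 1 in the latter, so the split is not particular to Emilin1. Over all 9 genes the differences ran from 0.26 to 0.99 in the former and from -0.10 to 0.21 in the latter. The median TPM was 56.9 against 24.4 in the former rats and 69.2 against 65.0 in the latter. With size factors the pooled difference was 0.50 (limma adjusted p = 0.13), and with all mapped libraries kept it was 0.95 (limma adjusted p = 0.0014). Over the alternatives tried, other than these splits and the fit without a rat chosen after the data were seen, its limma adjusted p ranged from 0.0014 to 0.17. The muscles of these groups, 8 in each, were not left out in turn.

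Running was compared with no running in injured muscle, averaged over both repair groups. No gene of the 9 was called on any day, and in all tested genes 0.0177%, 0%, 0% and 0.309% were called at 3, 7, 14 and 28 DPI. On plain TPM each of them was lower with running, while with size factors 2 were lower and 2 higher at 3 DPI. At 7 DPI 1786 tested genes had an unadjusted p below 0.05 in limma, and 4 of the 9 genes did. Those were Mfap5, at 0.51 (95% interval 0.14 to 0.88, limma adjusted p = 0.22), Mfap2, at 0.43 (0.06 to 0.81), Fbn1, at 0.38 (0.07 to 0.70), and Efemp2, at 0.33 (0.02 to 0.65). All 8 running rats at 7 DPI were numbered below 100, against 8 of 16 rats that did not run. Within rats of such numbers the differences were 0.18 for Mfap5, 0.22 for Mfap2, 0.21 for Fbn1 and -0.02 for Efemp2, with a limma adjusted p of 1 for each. At 14 DPI the unadjusted count was 586 of all tested genes and none of the 9. Running and nonrunning muscles overlapped for all 9 genes on every day. For Eln the difference was -0.19 (-0.51 to 0.14), -0.05 (-0.37 to 0.27), 0.01 (-0.36 to 0.39) and -0.20 (-0.65 to 0.26). At 28 DPI the running groups held 2 muscles each, and Mfap4 there was at -0.46 (-1.07 to 0.15).

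**Figure D4:**
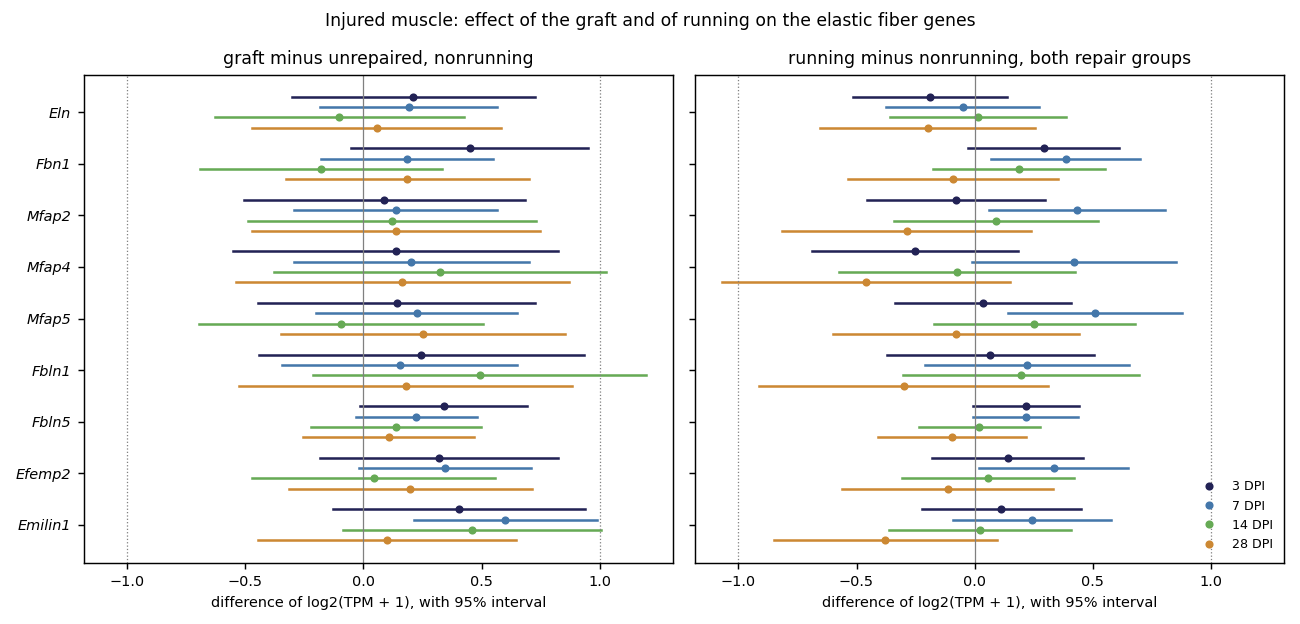
Difference in log2(TPM + 1) of injured muscle with the graft minus unrepaired (left, rats that did not run) and running minus nonrunning (right, both repair groups averaged), for the 9 genes by day; points are estimates, bars 95% intervals, dotted lines mark a difference of 1. Every point lies between -1 and 1, the highest being Emilin1 with the graft at 7 DPI, 0.60.

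Other genes of the elastic fiber pathway were taken from a list of 47 symbols, of which 37 had a row and 35 were tested. Against control, 28, 28, 26 and 25 of the 35 were called higher in unrepaired injured muscle at 3, 7, 14 and 28 DPI and none lower, where 48.3%, 45.6%, 25% and 21.1% of all tested genes were. The lists below hold 1 to 8 tested genes each, too few to set against that share. The cross-linking lysyl oxidases were called higher 5 of 5 on all 4 days, and at 7 DPI Loxl1 had the largest difference, 5.72 (SE 0.24), and Loxl4 the smallest, 1.81 (SE 0.21). Among elastin-degrading enzymes 8 of 8 tested were called at 3 DPI and 7 of 8 at 7 DPI, from Mmp14, a membrane-bound metalloproteinase, at 6.53 (SE 0.28) to Mmp7, at 0.85 (SE 0.24). Of the elastase inhibitors 3 of 4 were called at 7 DPI, with Timp1 at 6.07 (SE 0.35) and Timp3 at 0.82 (SE 0.17).

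The remaining groups were mixed. Of the microfibril and latent TGF-beta binding genes, 6 of 8 were called at 7 DPI, from Ltbp1, which stores latent TGF-beta in the matrix, at 2.57 (SE 0.16) to Mfap1a, at -0.05 (SE 0.11), which despite its name encodes a nuclear splicing protein. The elastin receptor and tropoelastin chaperone genes were called 4 of 4, from the chaperone Fkbp10, at 5.06 (SE 0.26), to Neu1, a sialidase of the receptor complex, at 1.05 (SE 0.11). Both tested relatives of the fibulins were called, Efemp1 at 1.96 (SE 0.24) and Hmcn1 at 1.5 (SE 0.13). Of the fibrillin-binding ADAMTS genes 1 of 3 was called, Adamts10 at 3.06 (SE 0.19), with Adamtsl5 the smallest at 0.55 (SE 0.14), and the only tested emilin relative, Emilin3, was at 0.51 (SE 0.12). In contralateral muscle against control, 19, 3, 5 and 1 of the 35 were called higher at 3, 7, 14 and 28 DPI, where 7.09%, 0.9%, 0.953% and 0.494% of all tested genes were. Neither the graft nor running gave a call among them on any day.

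Over the means of all 31 groups, the genes outside the list closest to Eln were Evc, Aspn, Sfrp4, Plxdc2 and Ccdc80, with Pearson r of 0.99 for each. In mean TPM, Aspn went from 1.67 in control to 334 in unrepaired injured muscle at 7 DPI and Sfrp4 from 1.06 to 197. Postn, which encodes the matrix protein periostin, was the closest gene to both Mfap2 and Mfap4, and stood at 2.38 TPM in control and 1261 TPM at 7 DPI. The closest to Fbn1 was Pcolce, an enhancer of procollagen processing, to Mfap5 Cd248, to Emilin1 Ptk7 and to Efemp2 Tsku. Fbln1 had Tceal9 and Fbln5 had Parva. Over these groups most injury-responsive genes share the contrast of injured with uninjured muscle, so a high r is not particular to these pairs.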

How the data were processed

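RNA-seq libraries of whole TA muscle were analysed from the gene table deposited by the authors, in which each value is a TPM that the authors estimated with Kallisto, the annotation being rat build 6.0 per the study's methods. The labels also name DESeq, and tool versions are not given in the sources used here. No count test was run, and the depth of each library is not given in the sources used here. The table ends within the letter T, and its last, incomplete row was left out, so later symbols were not analysed here. Libraries of the same muscle were averaged, with libraries under 7000 symbols above 1 TPM left out. The 9 libraries that the labels place in no single group entered no comparison. Replicates are muscles of different rats, except the 4 control muscles, which come from 2 rats. Genes with a mean above 1 TPM in at least 1 group were tested with limma 3.58.1 (trend, R 4.3.3) on log2(TPM + 1) over 114 muscles and 31 groups, with 83 residual degrees of freedom, checked first on simulated data. A call needed an adjusted p below 0.05 and a difference beyond 1, over all 11328 genes. Injured and contralateral muscles of the same rat pair the samples. Over 34 such pairs the deviations from the group means correlated at 0.094 on average (-0.068 to 0.36), and a block on rat had a within-rat correlation of 0.026. The members, gene lists and tests were chosen with earlier results of these data known. The named genes are all members, in each other list the genes with the largest and smallest difference at 7 DPI, and the genes most like each member (5 for Eln, 1 for each other). Coordinates and promoter sequence are from RefSeq. Alternatives were another pseudocount (0.1 TPM), no filter, size factors, the rat block, each library as its own sample, all mapped libraries kept, a mean of both control muscles of a rat, and a fit of only the groups compared. Each muscle of the groups with 4 muscles or fewer was also left out, in 71 fits, while muscles of the larger groups were not. Chosen after seeing the data were 2 of the 32 comparisons, and as alternatives the adjusted p alone, the rats by number at 7 DPI, and leaving out rat 011.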

Additional observations from a re-analysis of the deposited data

Results flagged for a closer look

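In 16 of 144 combinations of gene and group, the highest muscle stood apart from the others of its group by Dixon's criterion at 95%, where chance gives about 1 in 20, and genes of the same muscle are not independent. In unrepaired running rats at 7 DPI these were Eln at 93.0 TPM, Fbln5 at 45.2 TPM, Mfap2 at 192 TPM, Mfap5 at 452 TPM and Efemp2 at 197 TPM. Among graft muscles they were Eln at 133 TPM at 7 DPI, Fbn1 at 152 TPM and Emilin1 at 118 TPM at 3 DPI, and Fbln1 at 26.6 TPM, Mfap4 at 785 TPM and Mfap5 at 130.1 TPM at 14 DPI, all without running, and Eln at 59.1 TPM at 3 DPI with running. In unrepaired muscle at 14 DPI they were Fbln5 at 21.3 TPM and Mfap4 at 486 TPM without running and Fbln1 at 29.7 TPM with running. The last was Mfap2 at 5.35 TPM in contralateral muscle of unrepaired rats at 7 DPI.

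The difference between days was itself called for Mfap2 at 1.89 and Mfap4 at 2.18 from 3 to 7 DPI in unrepaired injured muscle, for Emilin1 at -1.47 and Fbln1 at -1.18 from 7 to 14 DPI, calls that did not hold within rats numbered 100 and above, and for Mfap2 at -1.10 from 14 to 28 DPI. In contralateral muscle from 3 to 28 DPI it was called for Fbln1 at -1.11, Fbn1 at -1.14, Mfap2 at -1.07, Mfap4 at -1.51 and Mfap5 at -1.11.

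Of the 9 libraries outside the comparisons because their labels disagree, 8 had Eln above 4.62 TPM, the highest control muscle.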

How the results depend on the processing

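No value of the 9 genes reversed its called direction under any alternative tried. With rat as a replicate block, which pairs the muscles of a rat, 288 of 288 values kept their call, 9 of 9 genes against control at 3 DPI included. The counts that moved by over 1.5 times were few, and the cause was not tested. For contralateral against control muscle, 4 calls at 7 DPI became 0 with all mapped libraries kept. The 3 calls at 14 DPI became 6 with a pseudocount of 0.1 TPM, 0 with all mapped libraries kept and 1 with control muscles averaged per rat, and 1 to 4 when single muscles were left out. The 1 call at 28 DPI became 3 with a pseudocount of 0.1 TPM, 0 without a filter, with size factors, with all mapped libraries kept or with control muscles averaged per rat, and 0 to 1 when single muscles were left out. In unrepaired injured muscle, the 2 calls from 7 to 14 DPI became 1 with size factors or all mapped libraries kept, 4 on the adjusted p alone, and 0 with only the 7 DPI rats numbered 100 and above, as all 14 DPI rats were. The 1 call from 14 to 28 DPI became 0 with a pseudocount of 0.1 TPM or all mapped libraries kept, 2 with the compared groups alone or on the adjusted p alone, and 0 to 2 when single muscles were left out. The 5 calls from 3 to 28 DPI in contralateral muscle became 1 with size factors, 0 with all mapped libraries kept and 1 to 5 when single muscles were left out. The graft comparison at 7 DPI went from 0 to 1 on the adjusted p alone. The depth of each library is unknown, so no floor can be given for low values such as Fbln1 in control muscle.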

Other observations

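At 28 DPI, 8 libraries from rats that ran were kept out of every comparison, since the title and the tissue label gave different sides. The 4 titled as injured held 4.10 to 6.84 TPM of Eln, 6.25 to 9.74 TPM of Mfap4 and 1.4 to 2.89 TPM of Mfap2. The 4 titled as control held 29.1 to 69.2 TPM of Eln, 102 to 220.1 TPM of Mfap4 and 12.2 to 32.8 TPM of Mfap2. The ranges of these sets did not overlap for any of the 9 genes, and the share of all tested genes separated this way was not counted. Injured muscle without running lay above contralateral muscle without overlap at 28 DPI in 67.4% (unrepaired) and 69.7% (graft) of tested genes. In rats that did not run, Eln at 28 DPI was 4.71 to 7.14 TPM in contralateral and 26.5 to 69.6 TPM in injured muscle. Which label of these 8 libraries is right was not tested. The contralateral library of the rat whose labels give different days held 11.6 TPM of Eln, 21.1 TPM of Mfap4 and 30.0 TPM of Mfap5.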
